A study of Bos indicus with 6 samples.

Results

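The gene described here is ENSBTAG00000007159, 1 of 24616 Ensembl cattle identifiers in the deposited table, chosen by its identifier as the estrogen receptor alpha gene, ESR1. The name comes with that choice. The gene table used here, RefSeq for a Bos indicus assembly, has 1 entry named ESR1 but holds no Ensembl identifiers, so it matched 0 of the 24616 and the pairing was not checked. In that assembly ESR1 lies between the protein-coding genes CCDC170 and SYNE1, and 1 annotated pseudogene, LOC139184973, overlaps it. The sources used here do not say whether reads of that pseudogene were counted apart from ESR1.

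ESR1 encodes a nuclear receptor that binds estradiol and then regulates transcription, often through estrogen response elements in DNA. In the endometrium, the lining of the uterus, estradiol around estrus raises the receptor itself along with the progesterone receptor, and progesterone acting through its own receptor lowers ESR1 as the luteal phase goes on. The receptor is known in luminal and glandular epithelium and in stroma, so a tissue sample averages several cell types. In bulk tissue, fewer cells that carry the transcript and less transcript per cell cannot be told apart.

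The samples were endometrial tissue of 6 healthy, multiparous Nelore cows, a Bos indicus beef breed, taken at slaughter on day 7, with GnRH given on day 0. All cows were on a regimen that started on day -10 with estradiol benzoate and a progesterone-releasing device, and all received cloprostenol, a prostaglandin F2 alpha analogue that ends luteal function, when the device was withdrawn. The LF-LCL group (large follicle and large corpus luteum, 3 cows) also had cloprostenol on day -10, and its device came out 42 to 54 hours before GnRH. The SF-SCL group (small follicle and small corpus luteum, 3 cows) had none on day -10, and its device came out 30 to 36 hours before GnRH. The corpus luteum is the progesterone-secreting gland that forms from the ovulated follicle. The arms of the trial held 35 and 39 of 74 cows. The sources used here do not say how the 6 sequenced cows were drawn from them, nor the age, follicle size or hormone levels of each cow. The comparison asks whether the endocrine setting around ovulation was accompanied by another level of ESR1 transcript a week later. Markers of epithelium, stroma and other cell types were not analysed here, because no table paired the identifiers with symbols.

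ESR1 was among the more abundant transcripts in every cow. The values are normalised read counts, that is, reads assigned to the gene divided by a size factor that makes the libraries comparable. By this value ESR1 ranked between place 336 and place 783 of all identifiers in the 6 libraries, above 93.8% to 97.4% of the genes that had a read. These ranks are not corrected for transcript length, so they do not rank transcripts by number of molecules. It was read from 742 to 2888 reads per library, which gives a counting error of 1.86% to 3.67% of the value. Library totals ran from 2896663 to 7811332 reads assigned to genes.

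In the LF-LCL cows the normalised read count of ESR1 was 1624 in replicate 1, 1589 in replicate 2 and 1620 in replicate 3. On these values the 3 cows sat close together, and none of the 3 pairs differed beyond counting error. In the SF-SCL cows it was 1945 in replicate 1, 1777 in replicate 2 and 1147 in replicate 3. SF-SCL replicates 1 and 2 lay above every LF-LCL cow and SF-SCL replicate 3 lay below every LF-LCL cow, so the groups overlapped, with the SF-SCL cows on both sides.

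**Figure D1:**
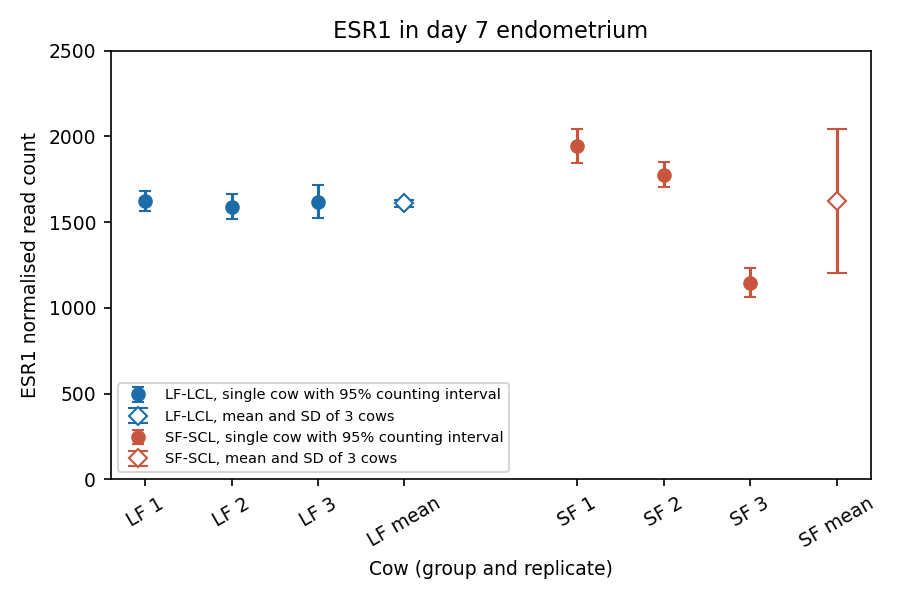
ESR1 normalised read count (y axis, from 0) in each of the 6 cows (x axis); filled points are single cows with the 95% exact Poisson interval of their reads, and open diamonds are group means with the SD of 3 cows. The LF-LCL cows lie between 1589 and 1624, and the SF-SCL cows at 1945, 1777 and 1147 lie on both sides of them.

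The group averages were nearly equal. ESR1 averaged 1611 ± 19.0 (SD, n = 3) among LF-LCL cows. The SF-SCL cows averaged 1623 ± 421 (SD, n = 3). On the log2(value + 1) scale, where the test was made, the means were 10.65 and 10.63, a log2 fold change of 0.03 (LF-LCL over SF-SCL, standard error 0.19). The arithmetic mean was thus lower in LF-LCL and the mean of logs higher, by amounts far below the spread between the SF-SCL cows. These amounts were not far below the spread between the LF-LCL cows, whose SD of log2 values was 0.017. ESR1 was not called (limma, adjusted p = 0.963; unadjusted p = 0.897), and the exact two-sided permutation test over the 20 regroupings of the cows gave p = 1, where the smallest possible is 0.1. Over all genes, 121 of 12535 tested (0.965%) passed the threshold. In LF-LCL, 84 of them (0.67% of all tested) were higher and 37 (0.295%) lower. The limma p-values set the group difference against the spread between cows, each sampled once, as estimated with the help of the other tested genes. The permutation p places the difference among the regroupings of the same 6 cows.

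The interval of the difference says how large a change the limma fit leaves room for. The 95% interval of the log2 fold change ran from -0.41 to 0.46, which is from 1.33-fold lower to 1.37-fold higher in LF-LCL. Under this fit a difference of 2-fold lies outside the interval, and differences within these bounds in either direction do not. The interval rests on 1 estimate of spread for both groups, while the spread of ESR1 itself was 0.017 in LF-LCL and 0.41 in SF-SCL (SD of log2 values, n = 3 each). The observed variance pooled in this estimate thus came almost wholly from the SF-SCL cows. Limma also draws the estimate towards the spread of the other tested genes, so the interval does not rest on ESR1 alone. In limma without the mean-variance trend the standard error was 0.23, against 0.19 here. No interval with a separate spread for each group was computed, so the bounds hold only under this fit.

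**Figure D2:**
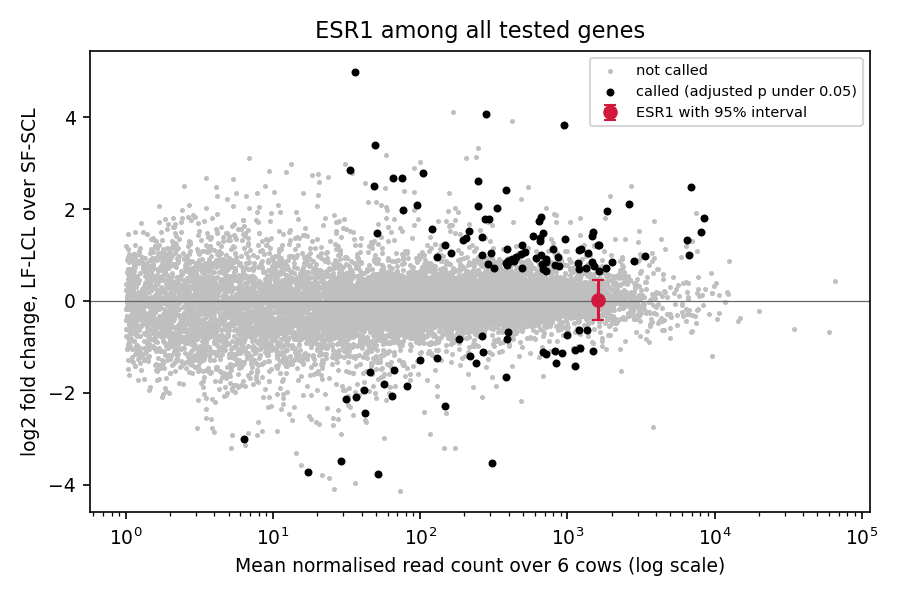
Log2 fold change of LF-LCL over SF-SCL (y axis) against the mean normalised read count over 6 cows (x axis, log scale) for the 12535 tested genes, with called genes in black. ESR1, in red with its 95% interval of -0.41 to 0.46, lies at 0.03, beside no fold change.

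Genes about as abundant as ESR1 give a scale for this difference. There were 332 other genes with a mean normalised read count between 1293 and 2021, within 1.25-fold of the ESR1 mean of 1617. Calls were made at this abundance, for 13 of the 332 (3.92%), of which LF-LCL had the higher level in 11 and the lower in 2. Their median absolute log2 fold change was 0.21, and 18 of the 332 (5.42%) had a smaller one than ESR1. Their median standard error was 0.13 against 0.19 for ESR1, and 78.9% of them had a smaller one.

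One cow, SF-SCL replicate 3, had a lower ESR1 value than the other 5. This library also stood apart from its group on the main axis of variation between the libraries. On the first principal component of 9517 genes, which held 40.1% of the variance, it scored -7.89, while SF-SCL replicates 1 and 2 scored -29.3 and -33.7 and the LF-LCL cows 19.1 to 28.1. It thus lay between the other SF-SCL cows and the LF-LCL cows on that axis. For ESR1 it did not lie between them, since its 1147 was below all 3 LF-LCL values. Against the mean of the other SF-SCL cows on the log2 scale, ESR1 in SF-SCL replicate 3 was lower by 1.62-fold, and 24 of the 332 genes of like abundance (7.23%) departed further in that cow in either direction, 7 of them (2.11%) downwards. It was also the library with the fewest reads, and the part of depth or of the library as a whole in its ESR1 level was not tested.

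Without SF-SCL replicate 3 the groups no longer overlapped. The remaining SF-SCL cows averaged 1861 ± 119 (SD, n = 2), and the fitted log2 difference turned to -0.21 (standard error 0.11, 95% interval -0.47 to 0.06). ESR1 was then 1.15-fold lower in LF-LCL and still was not called (limma, adjusted p = 0.385; unadjusted p = 0.109). In that fit 370 of 12533 genes (2.95%) were called. Leaving out SF-SCL replicate 1 instead turned the value to 0.17 and leaving out SF-SCL replicate 2 to 0.11. ESR1 was called neither without SF-SCL replicate 1 (limma, adjusted p = 0.786) nor without SF-SCL replicate 2 (limma, adjusted p = 0.872). Leaving out an LF-LCL cow moved it little, to between 0.02 and 0.04.

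**Figure D3:**
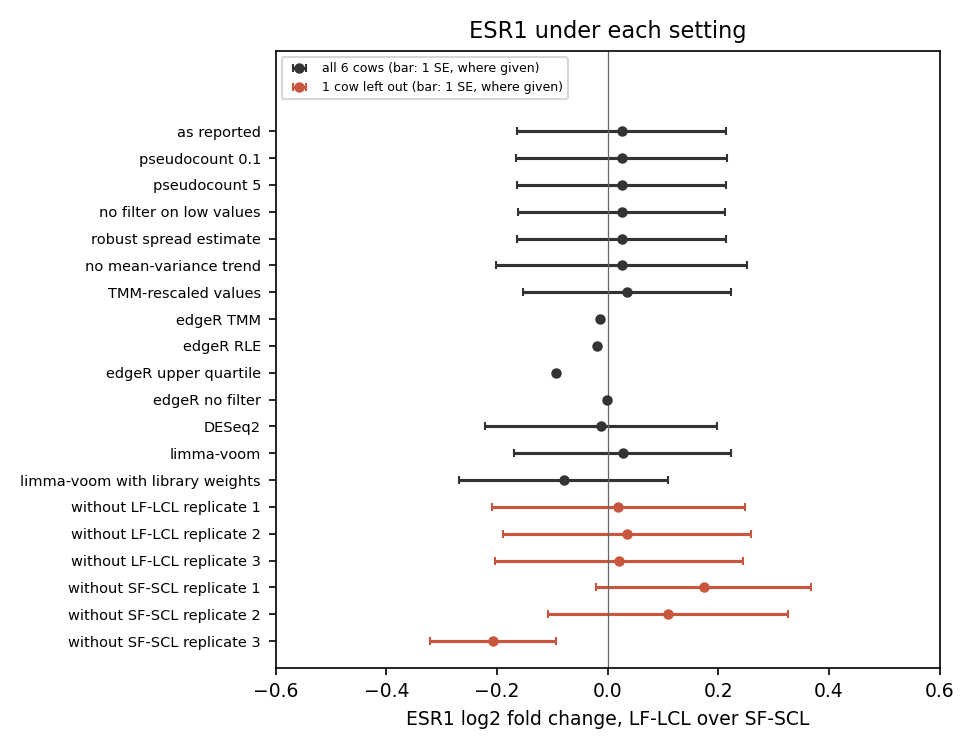
ESR1 log2 fold change of LF-LCL over SF-SCL (x axis) as reported and under each alternative setting (y axis), black for fits on 6 cows and red for fits with 1 cow left out; bars are 1 standard error where the tool gives one. Values with all cows lie between -0.09 and 0.03, and values with a cow left out between -0.21 and 0.17.

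The sign of the 6-cow difference depended on the tool. Of 13 alternative fits with all cows, 7 gave a higher value in LF-LCL, namely 6 variants of the limma fit and limma-voom. The other 6, which were all 4 edgeR fits, DESeq2 and limma-voom with library weights, gave a lower one. The values ran from -0.09 (edgeR with upper quartile factors) to 0.03 (limma on values rescaled by TMM). In the edgeR fit with upper quartile factors the median log2 fold change of all genes fitted was also low, at -0.079. That median was -0.001 in edgeR with TMM factors and -0.004 in limma-voom with library weights. None of the 13 alternative fits called ESR1, with adjusted p of 0.836 to 0.997 (limma, edgeR and DESeq2). As a share of all reads assigned to genes, with no size factor, ESR1 took 0.0351% ± 0.0022 (SD, n = 3) among LF-LCL cows and, among SF-SCL cows, 0.0369% ± 0.010 (SD, n = 3). Per cow, these shares were 0.0370%, 0.0326% and 0.0357% in LF-LCL replicates 1 to 3 and 0.0445%, 0.0408% and 0.0256% in SF-SCL replicates 1 to 3. On this scale, too, SF-SCL replicates 1 and 2 were above the LF-LCL cows and SF-SCL replicate 3 below them. The LF-LCL cows were less alike as shares, since LF-LCL replicate 1 was 1.13-fold above LF-LCL replicate 2 (95% interval from counting error 1.07 to 1.20) and LF-LCL replicate 3 was 1.095-fold above it (1.02 to 1.18).

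On the normalised read counts, neighbouring cows in the order of ESR1 levels differed beyond counting error except within LF-LCL. From high to low the order was SF-SCL replicate 1, SF-SCL replicate 2, LF-LCL replicates 1, 3 and 2, and SF-SCL replicate 3. SF-SCL replicate 1 was 1.09-fold above SF-SCL replicate 2, with a 95% interval of the ratio, from counting error only, of 1.03 to 1.17. SF-SCL replicate 2 was 1.09-fold above LF-LCL replicate 1 (1.04 to 1.16). LF-LCL replicate 2 was 1.39-fold above SF-SCL replicate 3 (1.27 to 1.51). These intervals cover counting error only. Reads that carry no molecular identifier can be copies of 1 molecule, and tissue sampling adds further error.

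The spread of ESR1 between cows was wide in SF-SCL and narrow in LF-LCL, which is given as a description with no test. The coefficient of variation was 1.18% in LF-LCL and 25.9% in SF-SCL. Set against counting noise alone, the squared deviations of the reads (chi-square per degree of freedom, where 1 is counting noise) came to 0.287 in LF-LCL and 74.7 in SF-SCL, and the median of the 332 genes of like abundance was 23.8 and 9.93. In LF-LCL the SD of log2 values, 0.017, was among the small ones, as 2 of the 332 genes (0.602%) had a smaller SD and their median was 0.16. In SF-SCL the SD of 0.41 was among the larger ones, as 297 of the 332 (89.5%) had a smaller SD and their median was 0.13. A drop in SD from SF-SCL to LF-LCL larger than that of ESR1 was seen in 15 of the 332 genes (4.52%).

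Both ends of this contrast rested on choices or on 1 cow. The narrow spread of the LF-LCL cows depended on the size factors. The SD of ESR1 was 0.046 with upper quartile scaling and 0.093 with library totals only, and the share of like genes with a smaller SD was then 6.59% and 22.5%. With TMM scaling the SD was 0.021 and that share 0.901%. Without SF-SCL replicate 3 the SF-SCL SD fell to 0.092, and 54.5% of the 332 genes had a smaller one between the same 2 cows.

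**Figure D4:**
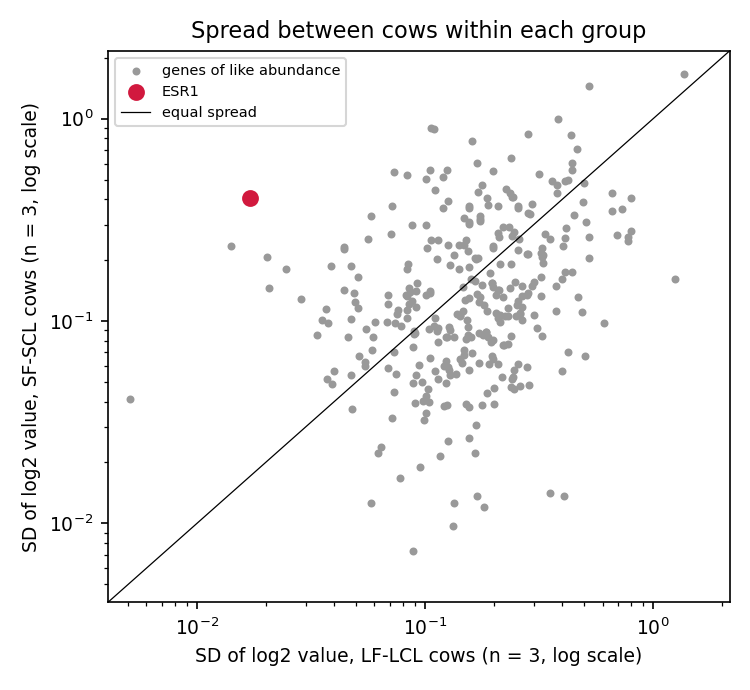
SD of log2 values between the 3 cows of LF-LCL (x axis, log scale) and of SF-SCL (y axis, log scale) for ESR1 in red and 332 genes of like abundance in grey; the line marks equal spread. ESR1 lies at 0.017 and 0.41, far above the line.

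The genes whose pattern over the 6 cows was most like that of ESR1 were sought among the 6589 other tested genes with a mean normalised read count of at least 100. The 2 with the highest Pearson correlation of log2 values with ESR1 and the 2 with the lowest are given by identifier, since their names were not paired. All points of a correlation share the same libraries and size factors, and with 6 cows and 6589 genes the extremes are a description only. Of the 6589 genes, 47 (0.713%) had an r over 0.9 and 47 (0.713%) an r under -0.9.

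ENSBTAG00000045794 was most alike (r = 0.980, Spearman's rho = 0.829, n = 6). Its normalised read count was 936.7, 963.5 and 931.5 in LF-LCL replicates 1 to 3 and 1026, 1005 and 810.0 in SF-SCL replicates 1 to 3. ENSBTAG00000002470 followed (r = 0.976, rho = 0.829, n = 6), with 249.6, 272.3 and 287.0 in LF-LCL and 336.9, 318.6 and 171.6 in SF-SCL. In both, as in ESR1, SF-SCL replicates 1 and 2 were above the LF-LCL cows and SF-SCL replicate 3 below them.

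ENSBTAG00000001763 ran most nearly opposite (r = -0.989, rho = -0.943, n = 6). Its normalised read count was 159.1, 160.7 and 157.6 in LF-LCL and 144.4, 156.4 and 191.7 in SF-SCL. ENSBTAG00000037533 came next (r = -0.980, rho = -0.943, n = 6), with 317.7, 318.1 and 258.9 in LF-LCL and 197.7, 256.1 and 589.0 in SF-SCL. In both, SF-SCL replicate 3 was above every other cow.

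These correlations were weaker without the cows at the ends of the ESR1 range. Of the single cows left out, SF-SCL replicate 3 weakened each of them most. Without that cow r was 0.903 for ENSBTAG00000045794, 0.877 for ENSBTAG00000002470, -0.937 for ENSBTAG00000001763 and -0.906 for ENSBTAG00000037533. Without SF-SCL replicates 1 and 3, the cows farthest from the ESR1 median, r over the remaining 4 cows was 0.807 for ENSBTAG00000045794, 0.783 for ENSBTAG00000002470, -0.828 for ENSBTAG00000001763 and -0.659 for ENSBTAG00000037533.

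**Figure D5:**
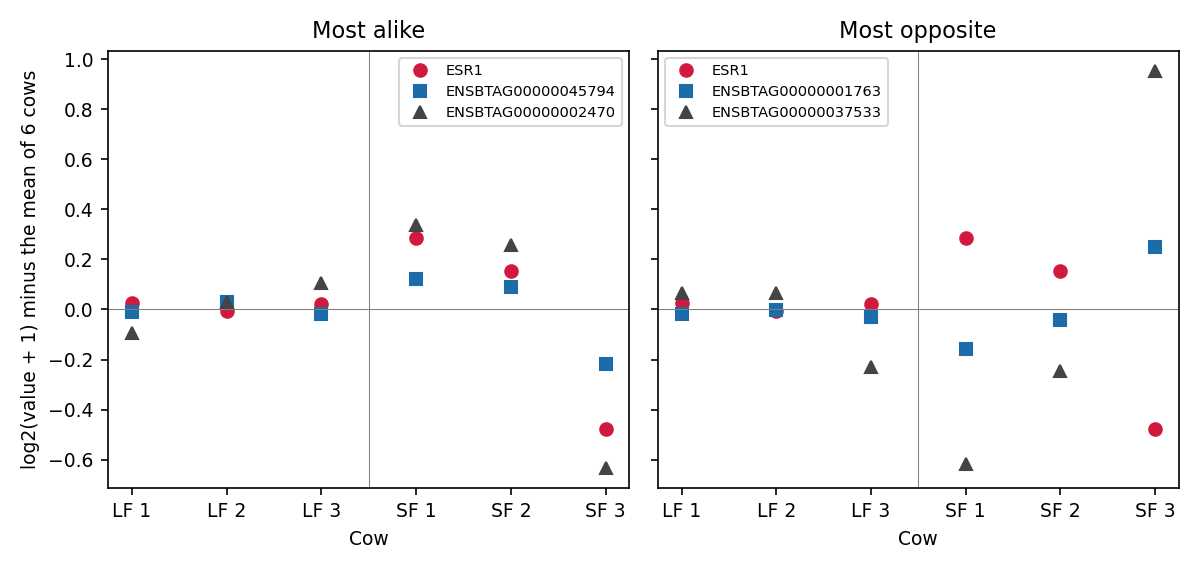
Log2(value + 1) minus the mean of the 6 cows (y axis) in each cow (x axis) for ESR1 in red, with the 2 genes of highest correlation on the left and the 2 of lowest correlation on the right. In SF-SCL replicate 3 ESR1 is at -0.48 and ENSBTAG00000037533 at 0.95.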

How the data were processed

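Endometrial RNA of 6 cows was sequenced, 3 per group, grouped by the sample titles. Replicate numbers were given here in accession order within each group, only as names. The authors deposited 1 table of signal values, at or above 0, with a column per cow. In each column all values are whole multiples of the smallest (within 0.01 reads, 100% of values), so they were read as counts divided by a size factor, and whole reads were recovered. Per the submitters' processing notes, the tools were DESeq 1.12.1, HTSeq 0.5.4p2, Bowtie2 2.1.0, CASAVA 1.8.2 and SAMtools 0.1.18, with no roles stated. The sources used here give neither genome build, annotation release nor strand setting.

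Genes with a mean of at least 1 were fitted as log2(value + 1) in limma 3.58.1 under R 4.3.3, allowing a mean-variance trend, with no term but group. Benjamini-Hochberg adjustment ran over all 12535 genes, with calls at an adjusted p under 0.05. edgeR 4.0.16 and DESeq2 1.42.0 on recovered reads were alternatives, as were other pseudocounts, filters, spread estimates and scalings, and leaving out each cow. Poisson and binomial 95% intervals are exact and cover counting error only. The fits were tested on simulated data. The labels name no sequencing batch, so no within-batch value was computed.

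The gene, tests and lists were chosen with earlier results of these data known. The 13 symbol lists (pathways and cell type markers) were not tested, because no identifier matched the gene table. The naming rule took ESR1 and, lacking symbols, the 2 genes of highest and the 2 of lowest correlation with it. The 1.25-fold abundance window was chosen after the values were seen.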

Additional observations from a re-analysis of the deposited data

How the results depend on the processing

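ESR1 was called under none of the 19 alternatives, 13 with all cows and 6 with a cow left out. Its log2 fold change of 0.03 changed sign with edgeR (-0.014 with TMM, -0.020 with RLE, -0.093 with upper quartile factors, -0.0015 without a filter), with DESeq2 (-0.012) and with limma-voom and library weights (-0.080); the cause was not tested. Leaving out 1 cow gave -0.21 to 0.17, and the value was negative only without SF-SCL replicate 3. The mean LF-LCL level of ESR1 was 1587 with upper quartile scaling and 1579 with library totals, against 1611. The mean SF-SCL level was 1651 and 1661 under the same scalings, against 1623. Limma called 121 genes in all. The count was 685 with DESeq2, 412 with limma-voom and library weights, 391 with edgeR without a filter, 55 with upper quartile factors, 500 at an adjusted p under 0.1 and 0 with limma without the trend (1863 genes at an unadjusted p under 0.05). With a cow left out limma called 0 to 370 genes. Leaving out LF-LCL replicate 1, 2 or 3 gave 1, 0 or 12 calls, and leaving out SF-SCL replicate 1, 2 or 3 gave 2, 0 or 370. Where limma made 0 calls, an unadjusted p under 0.05 was reached by 1580 genes (SF-SCL replicate 2 left out) and 1865 (LF-LCL replicate 2 left out). The correlation of ENSBTAG00000001763 with ESR1 was -0.75 with library totals, and no named correlation changed sign. Leave-outs of levels, ratios of shares between cows and all alternatives for spread and correlation were chosen after seeing the data. Tests of gene lists were not run. No paired analysis was run, because the 2 groups hold different cows and the labels pair none of them (the replicate numbers used here follow accession order).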
